A study of Rattus norvegicus with 10 samples.

Results

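The contractile genes described here are 10 genes: Acta2, Myh11, Cnn1, Tagln, Actg2, Mylk, Lmod1, Smtn, Cald1 and Oxtr. All but Oxtr, a receptor gene, belong to the actin-myosin machinery that myoepithelial and smooth muscle cells share. The 10 genes were chosen by name. Every probe whose RefSeq accession belongs to 1 of these genes was taken, which gave 16 probes of 30367 and 10 genes of the 14711 tested. Transcripts were measured in submandibular gland, a major salivary gland, of 5 spontaneously hypertensive rats (SHR), an inbred strain with high blood pressure, and of 5 Wistar Kyoto rats (WKY), the control strain matched for age and weight. All animals were male and 14 weeks old, no treatment is named for either strain, and labelled RNA of each rat was hybridised alone to an Agilent array that carries the strain and the paired numbers of its title as a name. A whole inbred strain is the model here, so the comparison carries every genetic difference between SHR and WKY and not blood pressure alone.

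Myoepithelial cells are flat epithelial cells that wrap the acini and first ducts of the gland and contract to press saliva forward. They carry the same contractile proteins as the smooth muscle of blood vessels: calcium entering the cell binds calmodulin, which activates myosin light chain kinase, and phosphorylated myosin then pulls on actin filaments that calponin, caldesmon and related proteins hold in check. Serum response factor and its partners of the myocardin family switch the genes of these contractile proteins on together. In RNA of a whole gland the contributions of the cell types are summed, and fewer contractile cells and less RNA per cell cannot be told apart.

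None of the 10 contractile genes differed between SHR and WKY past the threshold of the limma fit, an adjusted p below 0.05 (Benjamini-Hochberg, 14711 genes). Of all genes, 4.36% passed, 1.51% higher and 2.85% lower in SHR. By 1 probe per gene, the largest difference was that of the smooth muscle myosin heavy chain gene Myh11, at a log2 difference of 0.33 ± 0.11 (SE, n = 5 per strain, adjusted p = 0.128). At an unadjusted p below 0.05 Myh11 was the 1 gene of the 10, where 20.3% of all genes were. The 95% intervals of the 10 differences all lay between −0.51 and 0.58 on the log2 scale, so that a difference of 2-fold, 1 on that scale, was outside each of them. The median difference of the 10 genes was 0.08, against −0.02 for all genes. Taken probe by probe, 0 of the 16 probes passed, against 3.84% of all probes kept.

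The 16 probes were well above background on all 10 arrays, which few probes on the array fail, since 94.8% to 97.7% of spots met that mark. Levels are log2 intensities relative to the 75th percentile of the array, so that 0 is that percentile itself, and levels of different probes are not set against each other. All 20 tested genes of acini and ducts were above background on every array. So were 14184 of the 14711 genes tested and all 20 tested genes of skeletal muscle, so that this mark cannot tell the tissue. The arrays were scanned in 3 passes, taken as slides. Slide 1 held SHR 2-3, 3-1, 3-3 and 3-4, slide 2 held SHR 2-1 and WKY 1-5, 4-1 and 4-2, and slide 3 held WKY 1-2 and 1-3, so that a comparison within a slide rests on SHR 2-1 alone. Array SHR 3-3 stood apart, with 420 genes at least 2-fold below the other SHR arrays against 31 to 45 for each of those, and with the lowest 75th percentile of intensity, 333 against 431 to 648. The differences of the contractile genes are therefore also given without it.

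**Figure D1:**
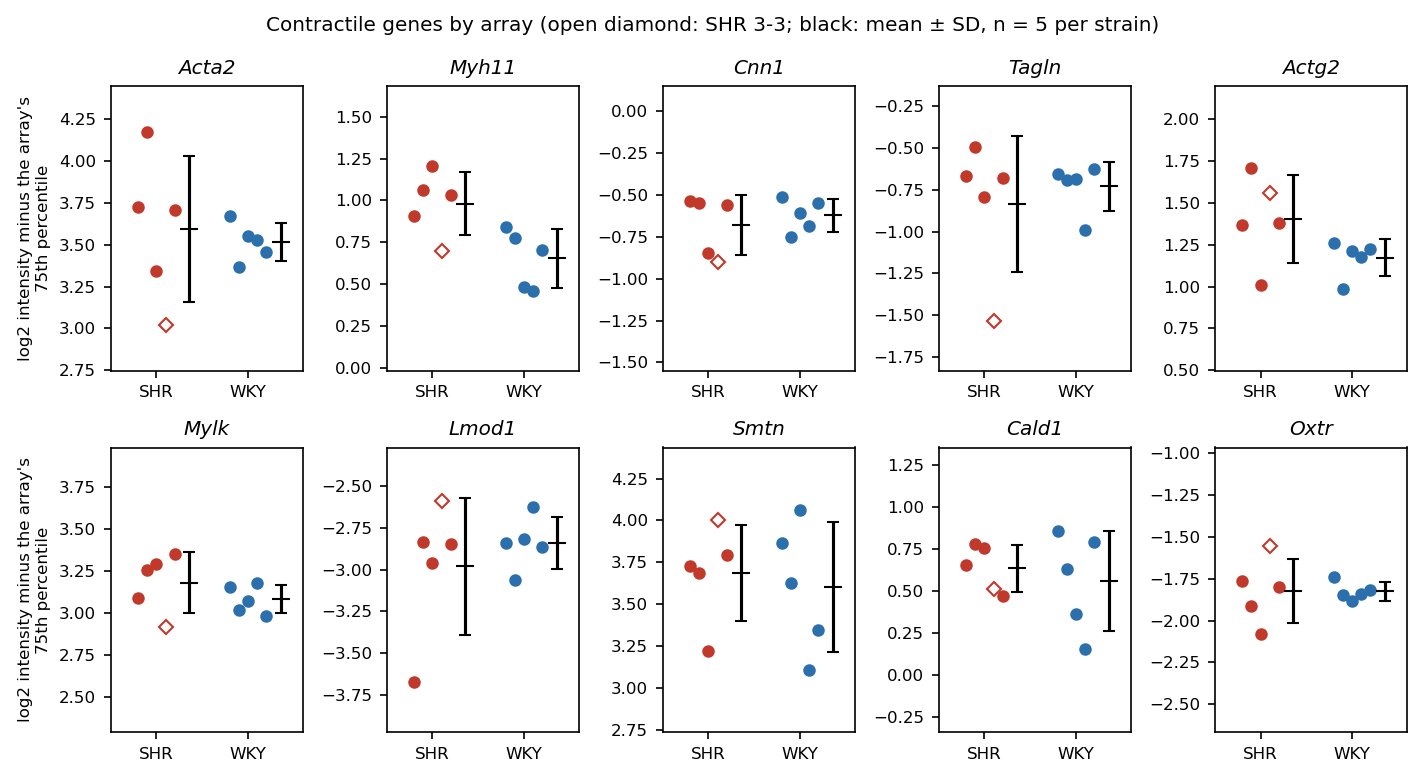
Level of the 10 contractile genes on each array, as log2 intensity minus the array's 75th percentile, with SHR left and WKY right in each panel. All panels span the same height. Points are arrays, the open diamond is SHR 3-3 and black marks are the mean ± SD of 5 arrays. The strains overlap in every panel, and SHR 3-3 is the lowest array for Acta2, Cnn1, Tagln and Mylk.

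Thin filament actins come first. Acta2 on chromosome 1 (chr1:241159723-241172503, build GRCr8 of the RefSeq gene table) encodes alpha smooth muscle actin, the usual marker protein of myoepithelial cells and of vascular muscle. Its level was 3.72, 4.17, 3.34, 3.02 and 3.70 in SHR 2-1, 2-3, 3-1, 3-3 and 3-4, against 3.67, 3.36, 3.55, 3.52 and 3.46 in WKY 1-2, 1-3, 1-5, 4-1 and 4-2. Both the highest and the lowest arrays were SHR, and all 5 WKY values lay inside the range of the SHR values. The SHR mean was 3.59 ± 0.44 and the WKY mean 3.51 ± 0.11 (SD, n = 5 each). The log2 difference was 0.08 ± 0.18 (SE, adjusted p = 0.846, 95% interval −0.30 to 0.46). Without SHR 3-3 it was 0.22 ± 0.14 (adjusted p = 0.412), and without SHR 2-3, the highest array, it was −0.07 (adjusted p = 0.843). In the authors' deposited table the same probe read 12.77, 13.28, 12.40, 11.86 and 12.64 in the SHR arrays and 12.70, 12.41, 12.50, 12.54 and 12.59 in the WKY arrays, on a log2 scale whose median is the same in every array, and the same 2 arrays stood at the ends.

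The start of Acta2 shows the sequence through which serum response factor is known to act on the gene, the CArG box. The 250 bases before its annotated start are printed beside those of Cnn1, which followed Acta2 across the arrays (described further on). They are taken from RefSeq, build GRCr8, minus strand for Acta2 at chr1:241172504-241172753 and plus strand for Cnn1 at chr8:28908187-28908436. Capitals mark CArG boxes, allowing 1 G or C among the inner letters, and the MCAT motif CATTCC of TEAD factors, read on both strands.
Acta2: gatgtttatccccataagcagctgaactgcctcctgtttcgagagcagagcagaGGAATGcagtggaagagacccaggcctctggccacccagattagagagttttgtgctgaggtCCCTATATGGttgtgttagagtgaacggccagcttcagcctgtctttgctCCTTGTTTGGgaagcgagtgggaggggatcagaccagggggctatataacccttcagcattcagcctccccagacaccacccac
Cnn1: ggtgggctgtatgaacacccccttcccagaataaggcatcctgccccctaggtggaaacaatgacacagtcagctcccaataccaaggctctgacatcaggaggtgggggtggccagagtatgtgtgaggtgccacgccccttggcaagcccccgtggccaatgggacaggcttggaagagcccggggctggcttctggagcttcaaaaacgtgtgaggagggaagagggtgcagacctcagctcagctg

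Acta2 held 2 such boxes, CCCTATATGG from base 134 and CCTTGTTTGG from base 84 before the start, and 1 MCAT motif from base 196, with no overlap between them. The Cnn1 stretch held no match to either motif in these 250 bases. Promoter windows of 250 bases before and 50 after the start were listed for 7 of the 10 genes. A CArG box with at most 1 inner G or C was found in 1 of the 7, Acta2, and in 9.42% of all 33469 windows. The strict box was found in 0 of the 7 and in 1.64% of all windows. MCAT was found for 3 of the 7, Acta2, Mylk and Cald1, and in 14.2% of all windows. A match describes the letters and not a bound factor, and the windows of Actg2 and Mylk begin inside the annotated gene.

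Actg2 on chromosome 4 (chr4:117579513-117604379) encodes gamma smooth muscle actin, the actin of gut and other visceral muscle. The brighter of its probes, A_64_P071495, read 1.37, 1.71, 1.01, 1.56 and 1.38 in SHR 2-1, 2-3, 3-1, 3-3 and 3-4, against 1.26, 0.99, 1.21, 1.18 and 1.23 in WKY 1-2, 1-3, 1-5, 4-1 and 4-2. Of the SHR arrays 4 lay above every WKY array, while SHR 3-1 lay among the WKY values. The difference was 0.23 ± 0.12 (SE, n = 5 per strain, adjusted p = 0.310, 95% interval −0.03 to 0.50), and 0.19 without SHR 3-3. The second probe, A_64_P031691, gave 0.30 ± 0.13 (adjusted p = 0.230 in the fit over all probes), with the same array at the bottom of the SHR values. Both probes of Actg2 moved together over the 10 arrays (Pearson's r = 0.94), more closely than those of any other of the 6 genes with 2 probes.

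Myh11 on chromosome 10 (chr10:1250554-1345681) encodes the heavy chain of the myosin that pulls on these filaments in smooth muscle. Its level by the brighter probe was 0.90, 1.06, 1.21, 0.70 and 1.03 in SHR 2-1, 2-3, 3-1, 3-3 and 3-4, against 0.84, 0.78, 0.48, 0.46 and 0.71 in WKY 1-2, 1-3, 1-5, 4-1 and 4-2. Again 4 SHR arrays lay above all WKY arrays, here with SHR 3-3 as the exception. The mean was 0.98 ± 0.19 in SHR and 0.65 ± 0.17 in WKY (SD, n = 5 each). Since SHR 3-3 was the only exception, leaving it out by itself ended the overlap of the strains. The difference without SHR 3-3 was 0.40 ± 0.11 (SE, adjusted p = 0.0539) and did not pass, where 4.92% of all genes passed. Over all genes and all 10 arrays, 7.25% did not overlap between strains, and 0 of the 10 contractile genes were among them. That share was not taken without SHR 3-3, so the lack of overlap of Myh11 there has no share of all genes beside it.

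The other Myh11 probe, A_64_P137375, did not show that difference. It read −0.90, −0.97, −0.99, −0.80 and −0.96 in SHR 2-1, 2-3, 3-1, 3-3 and 3-4 and −0.90, −0.91, −1.10, −1.15 and −0.83 in WKY 1-2, 1-3, 1-5, 4-1 and 4-2. The difference was 0.06 ± 0.09 (SE, n = 5 per strain, adjusted p = 0.768, 95% interval −0.13 to 0.25), and its values followed those of the brighter probe loosely (r = 0.31 over 10 arrays). Averaging both probes gave 0.19. With the slide as a random effect, where the estimated correlation within slides was negative at −0.19 and 3451 genes (23.5%) passed, Myh11 passed too (0.37, adjusted p = 0.0134). With the slide as a fixed block, which leaves the comparison to SHR 2-1, it gave 0.36 ± 0.20 and did not pass.

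Mylk on chromosome 11 (chr11:79288243-79535450) encodes myosin light chain kinase, the enzyme that starts contraction. Its level was 3.09, 3.26, 3.29, 2.91 and 3.36 in SHR 2-1, 2-3, 3-1, 3-3 and 3-4, against 3.15, 3.02, 3.07, 3.18 and 2.98 in WKY 1-2, 1-3, 1-5, 4-1 and 4-2. SHR 3-3 was the lowest of the 10 and 3 other SHR arrays were the highest. The difference was 0.10 ± 0.10 (SE, n = 5 per strain, adjusted p = 0.601) and became 0.17 ± 0.08 (adjusted p = 0.288) without SHR 3-3. A second probe gave a like mean difference, 0.11, but its array values bore no relation to those of the first (r = −0.01).

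Among the genes of the brakes and braces on actin, Cnn1 and Tagln followed Acta2. Cnn1 on chromosome 8 (chr8:28908437-28917099) encodes calponin, which restrains actin-activated myosin, and read −0.54, −0.55, −0.85, −0.90 and −0.56 in SHR 2-1, 2-3, 3-1, 3-3 and 3-4. In WKY 1-2, 1-3, 1-5, 4-1 and 4-2 it read −0.52, −0.75, −0.61, −0.68 and −0.55. The 2 lowest arrays were SHR and the other 3 SHR arrays sat near the top of the WKY range. The difference was −0.06 ± 0.10 (SE, n = 5 per strain, adjusted p = 0.795), and the SD was 0.18 in SHR and 0.10 in WKY. Without SHR 3-3 the difference was 0.00 (adjusted p = 0.993).

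Tagln, also on chromosome 8 (chr8:55121647-55127121), encodes transgelin, an actin-bundling protein of smooth muscle. It read −0.67, −0.49, −0.79, −1.53 and −0.68 in SHR 2-1, 2-3, 3-1, 3-3 and 3-4, against −0.66, −0.69, −0.69, −0.99 and −0.63 in WKY 1-2, 1-3, 1-5, 4-1 and 4-2. A single array in each strain stood low, SHR 3-3 and WKY 4-1, and the other 8 lay between −0.79 and −0.49. The difference was −0.10 ± 0.17 (SE, n = 5 per strain, adjusted p = 0.782). Leaving out SHR 3-3 turned its sign, to 0.07 ± 0.10 (adjusted p = 0.735).

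Cald1 on chromosome 4 (chr4:64232906-64414085) encodes caldesmon, which blocks myosin's access to actin and which many other cells carry in a shorter form. Its brighter probe read 0.65, 0.78, 0.75, 0.51 and 0.47 in SHR 2-1, 2-3, 3-1, 3-3 and 3-4, against 0.86, 0.63, 0.36, 0.15 and 0.79 in WKY 1-2, 1-3, 1-5, 4-1 and 4-2. Here the WKY arrays were the more spread, with an SD of 0.14 in SHR and 0.30 in WKY, and both extremes were WKY. The difference was 0.07 ± 0.14 by this probe (SE, n = 5 per strain, adjusted p = 0.807) and 0.06 ± 0.10 by the other (adjusted p = 0.798), whose values followed it (r = 0.67). By the brighter probe it was 0.11 without SHR 3-3 (adjusted p = 0.731), 0.15 without WKY 1-2 and −0.03 without WKY 4-1, so its sign rested on 1 array.

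Smtn on chromosome 14 (chr14:82622223-82644525) encodes smoothelin, an actin-binding protein of contractile smooth muscle. It had the highest pooled SD within strains of the 10 genes, 0.34, at 3.73, 3.69, 3.22, 4.01 and 3.79 in SHR 2-1, 2-3, 3-1, 3-3 and 3-4, against 3.87, 3.63, 4.06, 3.11 and 3.35 in WKY 1-2, 1-3, 1-5, 4-1 and 4-2. The difference was 0.09 ± 0.19 (SE, n = 5 per strain, adjusted p = 0.841), so that the interval ran from −0.32 to 0.49. Single arrays set its size and sign: it was 0.01 without SHR 3-3 (adjusted p = 0.989), 0.20 without SHR 3-1 or without WKY 1-5, 0.15 without WKY 1-2, 0.02 without WKY 4-2 and −0.04 without WKY 4-1. Its second probe differed in sign, at −0.19 ± 0.09 (adjusted p = 0.284), and lay close to the dim end of the array, with processed intensities of 39.4 to 73.3 in SHR and 54.1 to 88.6 in WKY.

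Lmod1 on chromosome 13 (chr13:49305693-49347970) encodes leiomodin, which starts new actin filaments in smooth muscle. It was dim as well, and read −3.67, −2.84, −2.96, −2.59 and −2.85 in SHR 2-1, 2-3, 3-1, 3-3 and 3-4, against −2.84, −3.06, −2.81, −2.63 and −2.87 in WKY 1-2, 1-3, 1-5, 4-1 and 4-2. One low array, SHR 2-1, set its difference of −0.14 ± 0.17 (SE, n = 5 per strain, adjusted p = 0.695), since the other 9 arrays lay between −3.06 and −2.59. That array is the only SHR array on a slide with WKY arrays, so with the slide as a fixed block the difference became −0.90 ± 0.19 (adjusted p = 0.112). The difference was 0.03 without SHR 2-1 and −0.09 without WKY 4-1. Leaving out SHR 3-3 gave −0.24 (adjusted p = 0.449). A second Lmod1 probe showed no low value for SHR 2-1 (−3.24 there, and −3.59 to −3.30 in the other SHR arrays), so that the 2 probes ran opposite ways over the arrays (r = −0.53).

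Oxtr on chromosome 4 (chr4:147154374-147171723) encodes the oxytocin receptor, through which oxytocin contracts the myoepithelium of the mammary gland. It read −1.76, −1.91, −2.08, −1.56 and −1.80 in SHR 2-1, 2-3, 3-1, 3-3 and 3-4, against −1.74, −1.85, −1.88, −1.84 and −1.82 in WKY 1-2, 1-3, 1-5, 4-1 and 4-2. The means were nearly the same, −1.82 ± 0.19 in SHR and −1.83 ± 0.05 in WKY (SD, n = 5 each), with a difference of 0.00 ± 0.10 (SE, adjusted p = 0.988) and an interval of −0.21 to 0.22. Without SHR 3-3 the difference was −0.06 (adjusted p = 0.731), and over the arrays left out in turn it lay between −0.06 and 0.07. SHR 3-3 was the highest array for Oxtr, the opposite of its place for Acta2, Cnn1, Tagln and Mylk.

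**Figure D2:**
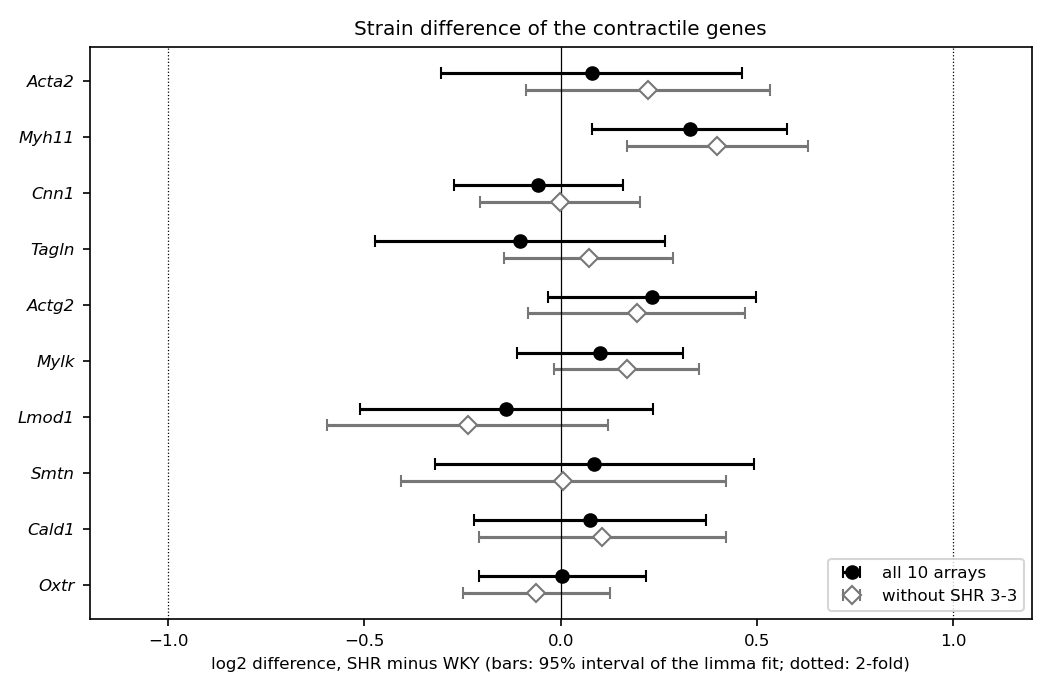
Log2 difference between SHR and WKY for the 10 contractile genes, with 95% intervals of the limma fit, over all 10 arrays (filled circles) and without SHR 3-3 (open diamonds). All intervals lie inside the dotted lines of a 2-fold difference, and over all arrays the interval of Myh11 alone, 0.08 to 0.58, lies to one side of 0.

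By the brightest probe, most contractile genes scattered more among the SHR rats than among the WKY rats, as did most genes tested. The SD was higher in SHR for 8 of the 10, the exceptions being Smtn and Cald1, and the median ratio of the SD in SHR to the SD in WKY was 2.29. Over all 14711 genes the SD was higher in SHR for 68.2%, with a median ratio of 1.33. Without SHR 3-3 the count was 6 of 10 with a median ratio of 1.45, against 55.1% and 1.08 for all genes. For Acta2 the SD of the SHR arrays was 0.34 without SHR 3-3, still above the 0.11 of the WKY arrays. Second probes did not all go that way. Their SD was lower in SHR than in WKY for Myh11 (0.08 against 0.14) and Mylk (0.16 against 0.18). It was also lower for Smtn (0.03 against 0.17) and Cald1 (0.09 against 0.17). For Actg2 (0.26 against 0.17) and Lmod1 (0.14 against 0.12) it was higher. These SDs and ratios are descriptions of 5 arrays per strain and were not tested.

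The 10 genes did not move as 1 block across the rats. Over their 45 pairs the median Pearson's r across the 10 arrays was 0.09, and 28 pairs were above 0. A tighter group was formed by Acta2, Cnn1 and Tagln, with r = 0.78 between Acta2 and Cnn1, 0.76 between Acta2 and Tagln and 0.75 between Cnn1 and Tagln. Part of this rested on SHR 3-3, which was the lowest array for all of them, and without it the values were 0.65, 0.59 and 0.54. The pair of Acta2 and Actg2 went the other way, with r = 0.43 over all arrays and 0.97 over the 9 without SHR 3-3, where Acta2 was low and Actg2 high. The points of these correlations are the same 10 arrays with their shared scaling, and they are given as a description.

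**Figure D3:**
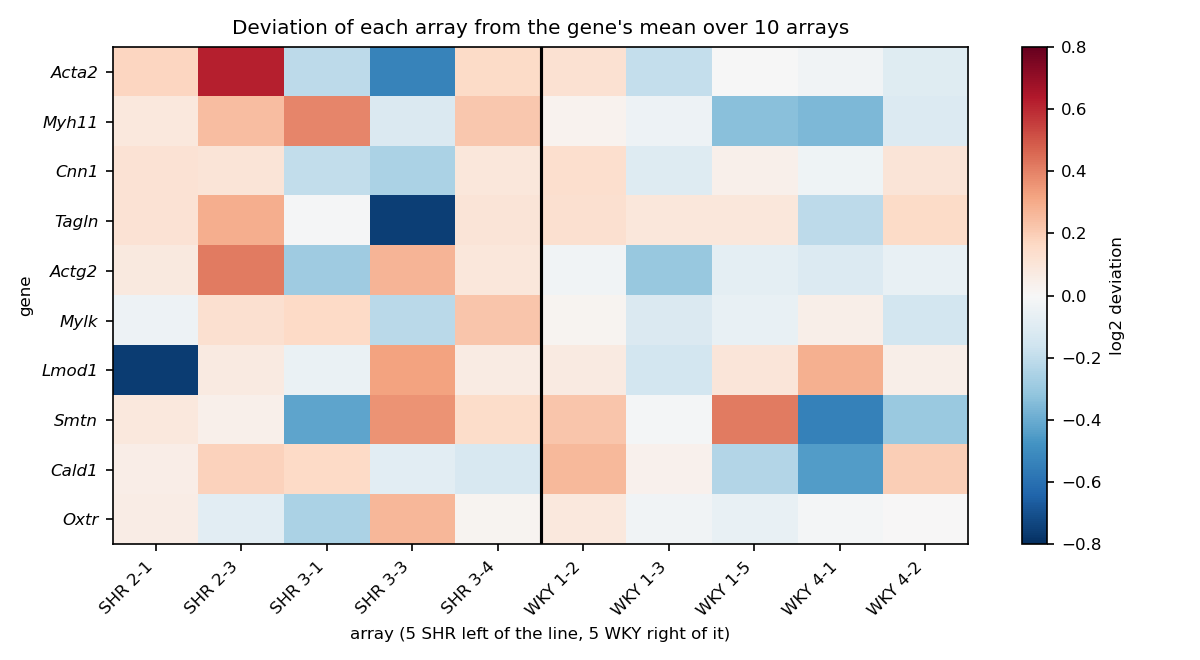
Deviation of each array (columns, SHR left of the line and WKY right) from the mean of each contractile gene (rows) over 10 arrays, on the log2 scale, red for higher and blue for lower. SHR 3-3 is blue for Acta2 (−0.53), Cnn1 and Tagln (−0.75) and red for Actg2, Lmod1, Smtn and Oxtr, while SHR 2-3 is reddest for Acta2 (0.62).

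Among 14671 other genes with a value on every array, those most like Acta2 over the 10 arrays were Myl9, the regulatory light chain of smooth muscle myosin (r = 0.87), and Tpm2, a tropomyosin of the thin filament (0.87), followed by Sema5a (0.87), RT1-Bb (0.86) and Mtus1 (0.85). Without SHR 3-3 these r were 0.84, 0.77, 0.79, 0.77 and 0.83. Myl9 read −0.21, −0.09, −0.34, −1.12 and −0.31 in SHR 2-1, 2-3, 3-1, 3-3 and 3-4, against −0.35, −0.61, −0.44, −0.36 and −0.52 in WKY 1-2, 1-3, 1-5, 4-1 and 4-2. Its lowest and highest arrays were those of Acta2, SHR 3-3 and SHR 2-3. Those most like Myh11 were Hbs1l, Cd82, Cwf19l2, Myo16 and Mios (r = 0.90 to 0.93), none of which is a gene of the contractile lists. These are the highest of many values over 10 arrays and are given as a description.

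SHR 3-3 also stood apart in markers of other cells. Its median deviation from the 10-array mean was −0.86 over 14 tested fibroblast and matrix genes, against −0.01 to 0.11 in the other SHR arrays. Over 11 tested macrophage and leukocyte genes it was −0.57, against −0.29 to −0.09 in those arrays. Over the 20 tested genes of acini and granular ducts it was −0.74, against 0.03 to 0.33. These genes of the gland epithelium moved both ways in SHR 3-3, so that the median does not speak for each gene. The duct genes Egf and Klk1c9, for a growth factor and a kallikrein of granular ducts, read 0.73 and 3.87 in SHR 3-3, the lowest of the 10 arrays. Aqp5, the water channel of acini, and Bhlha15, an acinar transcription factor, read 4.81 and 5.27, the highest of the 10 arrays. Of the same list, Krt7, Krt8, Krt19, Klk1c2, Klk1c10, Klk1c12, Cst3, Scnn1a and Slc4a4 were also lowest in SHR 3-3. Oprpn and Kcnma1 were also highest in SHR 3-3. The contractile genes deviated by −0.10 in it, and the 16 genes of myoepithelial and basal identity by 0.08. Skeletal muscle, a tissue that could enter a dissected gland, had a median deviation of 0.17 in SHR 3-3. Its 20 tested genes had a median strain difference of −0.03, with 0 past the threshold (largest, Tnnt1 −0.65 and Ckm 0.49). Of these 20 genes, 3 were at an unadjusted p below 0.05, against 20.3% of all genes. The part of these cell types in the values of SHR 3-3 was not tested.

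The lists around the contractile genes are read against the share of all genes past the threshold, 1.51% higher and 2.85% lower in SHR. Of 25 genes for calcium sensing and light chain phosphorylation 1 rose in SHR, 0 fell and 24 did not pass, with a median of 0.04. The one that rose was Ppp1cb, a catalytic subunit of protein phosphatase 1 that forms part of myosin phosphatase. It read 5.00, 5.22, 4.85, 5.19 and 4.90 in SHR 2-1, 2-3, 3-1, 3-3 and 3-4, against 4.58, 4.45, 4.55, 4.25 and 4.50 in WKY 1-2, 1-3, 1-5, 4-1 and 4-2, with no overlap. Its difference was 0.56 ± 0.10 (SE, n = 5 per strain, adjusted p = 0.00788), but its other 2 probes gave −0.03 and −0.10 (adjusted p = 0.956 and 0.787), and the mean of the 3 did not pass (0.14, adjusted p = 0.581). The light chain gene Myl9 differed by 0.04, Rhoa, which restrains the phosphatase through its kinases, by 0.00, and Rock2, such a kinase, by 0.05, and none of these passed.

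Of 32 partners of the thin filament and dense bodies, where actin is anchored, 1 fell, 0 rose and 31 did not pass (median −0.05). Smtnl1, a relative of smoothelin that is known in mouse muscle to act on myosin phosphatase, was the gene that fell. It read −0.02, −0.38, −0.87, 0.38 and 0.11 in SHR 2-1, 2-3, 3-1, 3-3 and 3-4, against 0.99, 1.25, 1.66, 0.98 and 1.78 in WKY 1-2, 1-3, 1-5, 4-1 and 4-2, so every SHR array was below every WKY array. The difference was −1.49 ± 0.23 (SE, n = 5 per strain, adjusted p = 0.00304), from the only probe of the gene. With the slide as a fixed block it was −1.49 as well, without passing (adjusted p = 0.395). Tpm1, Tpm2, Vcl and Des, genes of tropomyosins, vinculin and desmin, differed by 0.28, −0.04, 0.09 and 0.02 and did not pass.

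Of 13 transcription regulators of the serum response factor pathway and its partners, 0 passed (median −0.01), with the 2 largest differences at 0.46 ± 0.17 for Klf4 and −0.40 ± 0.14 for Gata6 (SE, n = 5 per strain, adjusted p = 0.142 and 0.118). At an unadjusted p below 0.05, 3 of the 13 were found, near the 20.3% of all genes. Srf itself had 0.34 and its coactivator gene Myocd −0.01, neither past the threshold. Gata6 passed in 2 of 22 alternatives, without SHR 3-3 (−0.48, adjusted p = 0.0487) and with the slide as a random effect. With normexp background correction its difference was −0.07 (adjusted p = 0.568). The gene was dim, with means of −4.76 in SHR and −4.36 in WKY, and was above background on 4 of the 5 SHR arrays.

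The list of receptors through which agonists contract muscle also holds the gene of an agonist, Avp for vasopressin. It had 2 lower genes of 22 and 0 higher (median −0.04), where 2.85% of all genes were lower. P2ry6, a receptor for uracil nucleotides, fell by 0.71 ± 0.10 and Agtr1b, an angiotensin II receptor of rodents, by 0.71 ± 0.15 (SE, n = 5 per strain, adjusted p = 0.00172 and 0.0173). P2ry6 lay between −1.92 and −1.51 in the SHR arrays and between −1.16 and −0.80 in the WKY arrays, without overlap. With the slide as a fixed block their differences were −0.42 and −0.23, and neither passed. The vasopressin receptor gene Avpr1a (−0.08), the endothelin receptor gene Ednra (0.06) and the muscarinic receptor gene Chrm3 (0.16) did not pass.

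**Figure D4:**
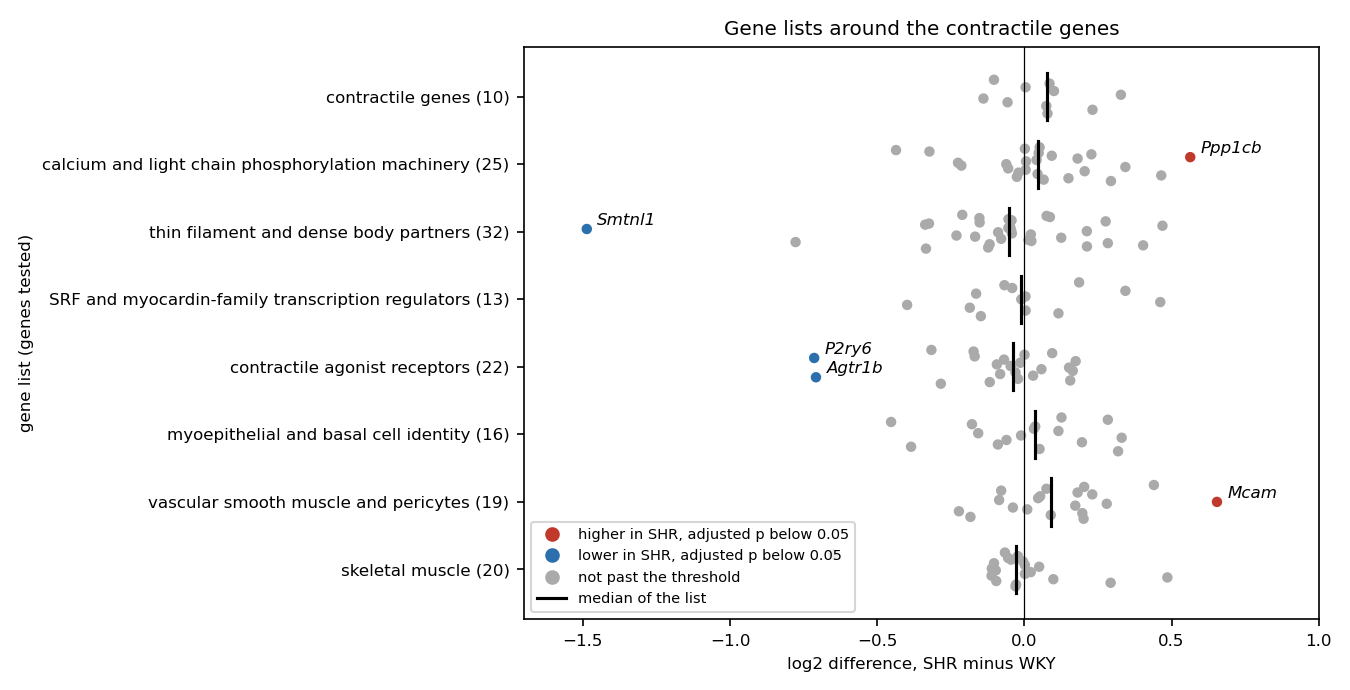
Log2 difference between SHR and WKY for each tested gene (points) of the contractile genes and 7 lists around them, with the number of genes tested in brackets and the median of each list as a black line. Red points are higher and blue points lower in SHR past the adjusted p threshold, and grey points did not pass. The 10 contractile genes are all grey, and 5 genes of the other lists are coloured.

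Myoepithelial and vascular muscle cells were then read by the markers that tell them apart. Of 16 genes of myoepithelial and basal cell identity 0 passed (median 0.03), and 9 of the 16 differences were above 0. The keratin genes Krt5 and Krt14 differed by −0.16 and −0.06, and Tp63, the master regulator of basal epithelium, by 0.28. Another keratin gene, Krt15, had the largest difference above 0, at 0.33. It lay between −0.42 and −0.24 in the SHR arrays and between −0.79 and −0.45 in the WKY arrays. Krt15 was the 1 gene of the 16 without overlap between strains, against 7.25% of all genes. The 2 largest differences were −0.45 ± 0.19 for Sox10, which acini and Schwann cells also carry, and −0.39 ± 0.14 for Il17b (SE, n = 5 per strain, adjusted p = 0.205 and 0.143). Il17b passed in 3 of 23 alternatives. These were the authors' deposited values (−0.47, adjusted p = 0.0435), normexp background correction (−0.42, adjusted p = 0.0444) and the slide as a random effect (−0.45, adjusted p = 0.00963). With the slide as a fixed block, which leaves the comparison to SHR 2-1, the difference of Il17b was −0.07. At an unadjusted p below 0.05 the list had 4 genes of 16, near the 20.3% of all genes.

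Of 19 genes of vascular smooth muscle and pericytes 1 rose, 0 fell and 18 did not pass (median 0.09). The one, Mcam, encodes the adhesion molecule CD146 of pericytes and endothelium, and lay between −1.03 and −0.54 in the SHR arrays and between −1.79 and −1.28 in the WKY arrays. All SHR arrays were above all WKY arrays, and the difference was 0.65 ± 0.13 (SE, n = 5 per strain, adjusted p = 0.0136). With the slide as a fixed block it was 0.37 and did not pass. Other markers of these cells, Rgs5 (0.07), Notch3 (0.05) and Pdgfrb (0.23), did not pass. Among 11 endothelial genes 1 rose and 0 fell (median 0.05). Their differences ran from −0.13 for Flt1 to 0.60 for Plvap, and 7 of the 11 were above 0. Plvap was the gene that rose (0.60 ± 0.15, adjusted p = 0.0443). Its strains overlapped, at 1.93 to 2.49 in the SHR arrays and 1.30 to 2.02 in the WKY arrays. Pecam1 (0.41) and Cdh5 (0.17) did not pass.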

How the data were processed

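Per the file headers, the scanner output came from Agilent Feature Extraction 11.0.1.1, and the column used is its processed signal, a linear intensity per spot. The authors' deposited values are on a log2 scale for 30423 probes, with the same median, 7.19, in all 10 columns; the sources used here do not say how they were made. They correlated with log2 processed signal at 0.999 or more on each array.

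Each array's log2 intensity was lowered by its 75th percentile over non-control spots. Outlier spots were dropped, leaving 45 missing values, and repeated spots were averaged. Probes well above background on at least 5 arrays were kept, 29266 of 30367. Symbols came from RefSeq accessions (GRCr8), giving 18005 probes a gene, and the brightest kept probe stood for its gene. SHR minus WKY was tested with limma (lmFit, eBayes, two-sided) with Benjamini-Hochberg adjustment across 14711 genes, and separately across 29266 probes. The fit was tested on simulated data. Each array is 1 rat, and the number of arrays limits the precision.

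Alternatives were normexp (offset 50, median signal) followed by quantile normalization, quantile normalization alone, median scaling, the deposited log2 values, other background filters (none, or 10 of 10 arrays), retained outlier spots, averaged probes, slide as fixed or random block, slide 2 alone, an intensity trend with robust variances, array weights, and each array left out. The members and lists were chosen with earlier results of these data known. Named are the 10 members, per list up to 4 genes past the threshold or, with none, the 2 largest differences, and the 5 genes most correlated with Acta2 and Myh11. Other list genes are textbook examples chosen after their values were seen. Software was limma 3.58.1 and data.table (version 1.17.8) in R 4.3.3, and matplotlib 3.10.9, pandas 2.3.3 and numpy 2.4.6 in Python 3.11.15.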

Additional observations from a re-analysis of the deposited data

Results flagged for a closer look

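Of 50 groups of 5 arrays examined for a lone array (16 contractile probes and 9 genes of the surrounding lists, in each strain), 2 stood out, where chance gives about 1 in 20. Both were of the Tagln probe. In SHR, array 3-3 read −1.53 while the other SHR arrays lay between −0.79 and −0.49. In WKY, array 4-1 read −0.99 while the other WKY arrays lay between −0.69 and −0.63.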

How the results depend on the processing

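The count of contractile genes past the threshold was 0 in 22 of 23 alternatives and that of contractile probes in 21 of 22. The exception was the slide as a random effect, with 1 gene and 2 probes (Myh11, adjusted p = 0.0179, and Actg2, 0.0445), where the within-slide correlation was negative and 3451 genes passed in all. Of all genes 641 passed, against 44 with the slide as a fixed block, 52 on slide 2 alone (both rest on SHR 2-1) and 343 to 724 without 1 array: 371 without WKY 1-2, 343 without WKY 1-3 and 416 without WKY 4-1. The share of lower genes among calls, 65.4%, was 55.6% with normexp, 54.5% with quantile normalization, 53.5% with median scaling and 50.5% with the authors' values. The median of the contractile genes lay between −0.01 (without WKY 4-1) and 0.13. With a fixed block or slide 2 alone, 0 genes passed in the lists of phosphorylation machinery, thin filament partners, agonist receptors and vascular muscle. With the random effect 6 genes passed for phosphorylation machinery, 8 for thin filament partners, 3 for regulators, 6 for myoepithelial identity and 4 for vascular muscle. Phosphorylation machinery had 2 with median scaling or array weights. Thin filament partners had 2 with normexp, quantile normalization or array weights, and 1 to 2 without 1 array. Myoepithelial identity had 1 with normexp, quantile normalization or median scaling, 2 with the authors' values and 0 to 1 without 1 array; regulators had 0 to 1 without 1 array. The causes were not tested. No paired analysis was made because the labels name no pairs of SHR and WKY rats.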
